A study of Sus scrofa with 4 samples.

Results

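The extracellular matrix genes described here are the collagens, the laminins, the fibrillins and fibulins, the proteoglycans decorin, lumican, biglycan, fibromodulin and versican, fibronectin and the matricellular proteins, and the enzymes that hydroxylate and crosslink collagen. They were picked by gene name, without regard to their values: every collagen and laminin chain, fibrillin, fibulin, thrombospondin, member of the lysyl oxidase family, prolyl 4-hydroxylase alpha subunit and lysyl hydroxylase, together with FN1, SPARC, TNC, POSTN, DCN, LUM, BGN, ELN, VCAN and FMOD. Of 34853 gene names on the array, 42 met this rule, and they were carried by 126 probes. The RNA came from PIP, a preadipocyte line isolated from the longissimus muscle of the Duroc pig, and from adipocytes made from it, called pMA. PIP was sampled before differentiation. The pMA were kept for 4 days in differentiation medium with insulin at 50 ng/mL, dexamethasone at 0.25 μM, octanoate at 2 mM and oleate at 200 μM, and were sampled without further treatment, after 12 h with serotonin at 100 μM, or after 12 h with TNF-α at 2.5 μg/mL. All cells were between passages 26 and 35 and were grown with 10% serum, and the culture was a single line, so that nothing here speaks for other animals.

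Each of the 4 conditions was hybridised to 1 single-colour 60-mer array, and all 4 arrays lay on the same slide. Within a condition the RNA had been pooled. There is therefore no replicate check on any difference below, no test and no p-value, and a change is described by its size with 2-fold as the mark. A level is the log2 of the processed fluorescence after subtracting the array's 75th percentile over all non-control probes, so that 0 is the brightness of the 75th percentile probe. A ratio is a difference between levels of the same probe on 2 arrays. Levels of different probes depend on their own hybridisation and are not set against each other. The exception is the sums over lists of cell-type markers given below, where brighter probes weigh more and a gene's share depends on its probe. The SD of a log2 ratio taken from 50 probes spotted repeatedly was 0.17 to 0.20, which covers noise within an array and not the spread between cultures. On each array 56.5% to 66.0% of spots were well above background and none was saturated.

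Collagens are made as procollagen chains that fold into helical trimers in the endoplasmic reticulum. Prolyl 4-hydroxylases and lysyl hydroxylases modify the chains there, and lysyl oxidases crosslink the secreted molecules outside the cell. Fibrillar types I, III and V give the interstitial matrix its strength, type VI forms beaded filaments around cells, and laminins with type IV collagen build the basement membrane that surrounds a mature fat cell. Remodelling of this matrix accompanies the change from a fibroblast-like preadipocyte to a rounded adipocyte.

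The collagen repeat can be read in some of the probes themselves. A collagen helix repeats the triplet Gly-X-Y, and since every glycine codon begins with GG, its coding sequence carries GGN at steps of 9 bases. A run of at least 5 such codons on the printed strand was found in 3 of the 60 collagen probes, in 0 of the 66 other matrix probes and in 9 of all 43603 probes, or 0.0206%. The 3 are shown 5′ to 3′ with the glycine codons in capitals, because they place the measurement inside the helix-coding part of the message. The only probe named COL1A1, on which the COL1A1 values rest, is shown after them in lower case. It starts at base 158 of its target transcript.
COL8A1: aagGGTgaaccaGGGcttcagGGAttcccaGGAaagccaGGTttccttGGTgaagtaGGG
COL7A1: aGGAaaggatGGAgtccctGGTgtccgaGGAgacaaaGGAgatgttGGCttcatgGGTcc
COL17A1: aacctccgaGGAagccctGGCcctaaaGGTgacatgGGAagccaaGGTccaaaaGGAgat
COL1A1: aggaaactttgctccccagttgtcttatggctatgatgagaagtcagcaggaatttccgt
Between serotonin-treated and untreated pMA, the helix probe of COL8A1 had a log2 ratio of -1.37, that of COL7A1 -0.82 and that of COL17A1 -0.66. For COL17A1 this is also the brightest probe, while COL8A1 and COL7A1 are represented below by brighter probes elsewhere on their transcripts.

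Where a gene had several probes, the brightest on average over the arrays was used. Of the 42 genes, 35 were well above background on all 4 arrays. COL10A1, the collagen of hypertrophic cartilage, was well above background on 3 and not on the pMA array, and LOXL4 on the TNF-α array alone. A further 5 genes, among them the cartilage collagens COL11A2 and COL9A2, the basement membrane chain COL4A3 and COL21A1, were not well above background on any array, so they have no ratio. The rest of the description rests on the other 37. COL3A1, COL4A1, COL4A2, COL6A1, COL6A2, LAMC1, ELN, THBS2 and P4HA2 were not analysed here under those names.

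Serotonin gave the widest displacement of the matrix genes. Among the 35 measured on all arrays, 26 (74.3%) had their lowest level in serotonin-treated pMA, against 24.7% of the 16421 gene names measured likewise. The preadipocyte array held the highest level of 17 of the 35 (48.6%, against 26.9% of all gene names). Untreated pMA held the highest level of 11 (22.7% of all gene names), TNF-α-treated pMA of 6 (19.4% of all gene names), and serotonin-treated pMA of 1, the elastic fibre gene FBLN5 (31% of all gene names).

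**Figure D1:**
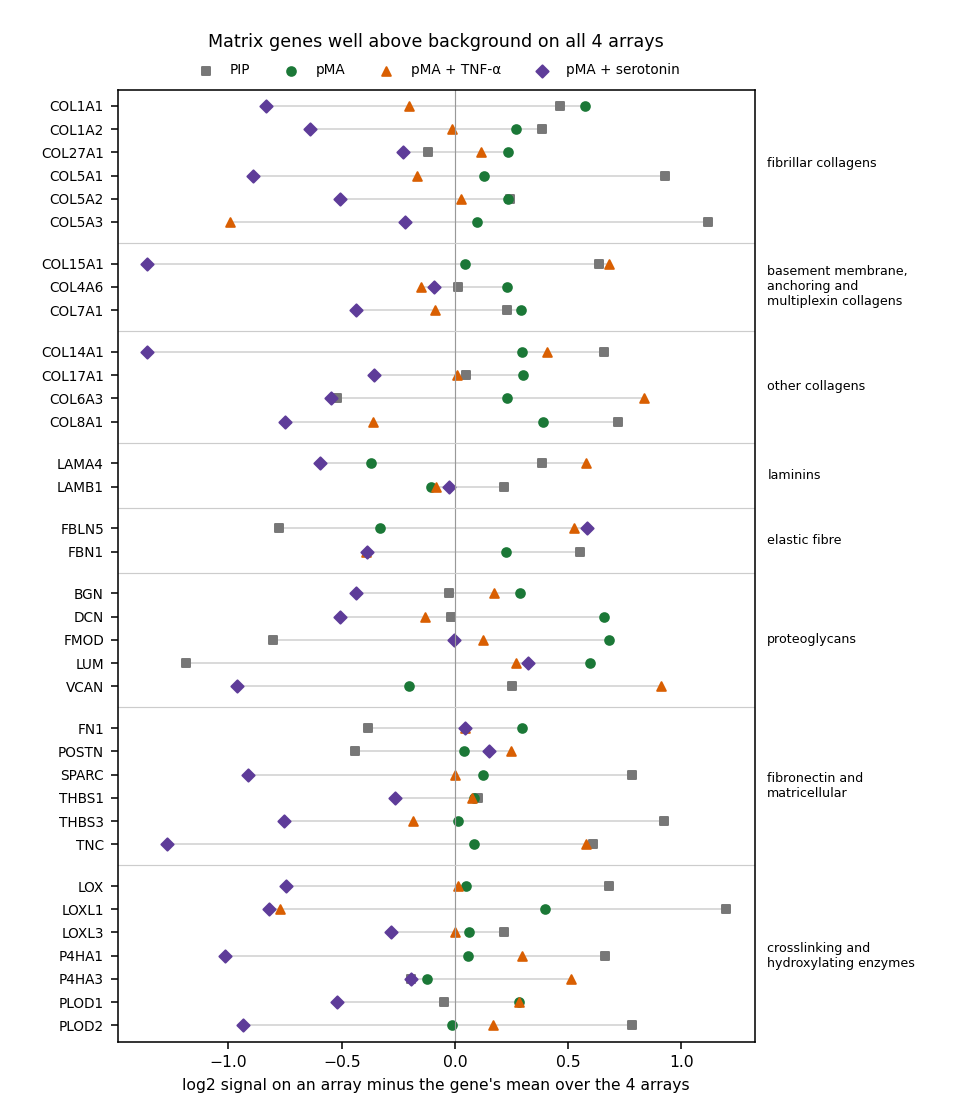
Level of each of the 35 matrix genes well above background on all 4 arrays, as the log2 signal on an array minus that gene's mean over the 4 arrays (x axis), by role, with 1 array per condition (squares PIP, circles pMA, triangles pMA with TNF-α, diamonds pMA with serotonin). The serotonin diamond is the leftmost symbol in 26 of the 35 rows.

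The comparison of pMA with PIP asked how the matrix program of the preadipocyte differed after 4 days of differentiation. LUM and FMOD, small leucine-rich proteoglycans that bind collagen fibrils and set their diameter, were at least 2-fold higher in pMA, and the fibrillar chain COL5A3 was at least 2-fold lower, a call that held in 4 of 8 other settings. Of 36 genes with a ratio, 2 were at least 2-fold higher and 1 at least 2-fold lower in pMA. In the same comparison 9.94% of 18633 gene names were at least 2-fold higher and 3.56% at least 2-fold lower. The median log2 ratio of the matrix genes was -0.12 and that of all gene names 0.12, with 15 matrix genes above 0 and 21 below, where 41.9% of all gene names were below.

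Lumican, LUM, was the matrix gene with the largest ratio. Its level was 2.95 in PIP, 4.74 in pMA, 4.41 after TNF-α and 4.46 after serotonin. Every pMA array stood above PIP, and untreated pMA was 3.45-fold higher (1.79 on the log2 scale), with all 9 LUM probes between 1.55 and 2.07. Those 9 probes cover 5 stretches of the transcript that do not overlap. Fibromodulin, FMOD, which competes with lumican for sites on collagen, had 1 probe and read 3.41 in PIP, 4.90 in pMA, 4.34 after TNF-α and 4.21 after serotonin, a 2.80-fold difference between pMA and PIP. Decorin, DCN, which also binds growth factors, stood at 3.57 in PIP and 4.25 in pMA, and the 0.67 between them fell short of 2-fold, with its 5 probes between 0.12 and 0.75. Biglycan, BGN, differed by 0.31. Versican, VCAN, the large hyaluronan-binding proteoglycan, was the only member of this group with a negative ratio, at -0.46.

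Among the fibrillar collagens, COL5A3 was 2.03-fold lower in pMA, from 1.13 in PIP to 0.11 in pMA, on a single probe. COL5A1, the chain that nucleates type I fibrils, read 6.00 in PIP and 5.20 in pMA. Its ratio of -0.80 came from the brightest of 3 probes, which ran from -0.80 to 0.47, so the probes did not share a direction. On the probes with their gene names the type I chains moved little, COL1A1 from 2.78 to 2.89 and COL1A2 from 8.66 to 8.55. A fainter probe described as type I alpha 1, filed under a transcript name, went from -2.35 to -0.89, a ratio of 1.46. COL5A2 differed by -0.01. Outside the fibrils COL15A1, a multiplexin of the basement membrane zone, had a ratio of -0.59 and all 8 of its probes lay between -0.69 and -0.47. COL6A3, the longest type VI chain and the parent of endotrophin, had 0.75, but its 8 measured probes ranged from -0.04 to 1.71. The laminin chains LAMA4 and LAMB1 had -0.75 and -0.32, and the LAMB1 probes disagreed, the other giving 0.65.

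Fibronectin, FN1, was at 7.69 in PIP and 8.38 in pMA, and its 2 probes gave 0.68 and 0.72. Periostin, POSTN, gave 0.48 on its brightest probe although 4 of its 6 probes were below 0. SPARC, a collagen-binding matricellular protein, read 8.16 in PIP and 7.50 in pMA, a ratio of -0.66. Its probes depended on position. The 2 probes at base 313 gave 0.43 and 0.48, and the 2 that start at bases 1785 and 1788 gave -0.76 and -0.66. THBS1, an activator of latent TGF-β, showed the widest disagreement of any matrix gene: its 6 probes ran from -3.43 to 1.03, and the brightest gave -0.02. No direction is assigned to THBS1. THBS3 read 5.29 in PIP and 4.38 in pMA, with probes at -0.91 and -1.09. Tenascin C, TNC, had -0.53 and 0.09 on its 2 probes.

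Of 7 collagen-modifying enzymes measured, 5 were lower in pMA (41.9% of all gene names were) and none by 2-fold. LOXL1, an oxidase best known from elastic fibres, went from 6.58 to 5.79, LOX from 5.63 to 5.00, and the lysyl hydroxylase PLOD2 from 4.76 to 3.96. P4HA1, the main prolyl 4-hydroxylase alpha subunit, read 4.72 in PIP and 4.11 in pMA on its brightest probe, a ratio of -0.60. The median of its 8 probes was -1.24 and the lowest -1.61, so that the choice of probe decides whether P4HA1 passes 2-fold. PLOD1 had 0.34 and P4HA3 0.07. In the elastic fibre group FBLN5, which guides elastin assembly, had 0.45, and fibrillin 1, FBN1, had -0.33 on the brightest of 3 probes while the other 2 were above 0.

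The partners that fold and process procollagen, of which 12 had a ratio, were below 0 in 9 cases, where 41.9% of all gene names were. SERPINH1, the collagen chaperone HSP47, was the lowest, at 4.51 in PIP and 2.39 in pMA (4.34-fold), followed by PPIB, a proline isomerase of the same compartment, at 5.02 and 3.68. ADAMTS2, which removes the procollagen N-propeptide, had a log2 ratio of 2.06. Of 10 receptors with a ratio, the hyaluronan receptor CD44 had a log2 ratio of 1.15 and ITGA1, the alpha chain of a collagen-binding integrin, -1.11. Of 10 other matrix proteins, DPT (-1.55) and SPP1 (-1.16) passed 2-fold, both downward. In this comparison 9.94% of all gene names passed 2-fold upward and 3.56% downward. None of 6 collagenases, gelatinases and TIMPs passed 2-fold. Both adipogenic and proliferation markers differed between these arrays. CD36 and FABP4 were higher in pMA. The adipocyte list summed to 1.94 in PIP and 5.49 in pMA as a linear signal in units of the 75th percentile. On each array 6 of its 9 genes were well above background. LPL made up 79.8% of the sum in PIP and CD36 41.2% in pMA. ADIPOQ and PLIN1, which define mature fat cells, were not well above background in any pMA sample. The list of dividing-cell genes summed to 55.6 in PIP and 23.3 in pMA, most of it from MKI67 (-0.41). CCNB1 had a log2 ratio of -4.91, BIRC5 -4.40 and CDK1 -4.02. The part of these markers in the matrix differences was not tested. In bulk RNA, fewer cells of a type and less RNA per cell cannot be told apart.

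The scaling of the arrays bears on this comparison. With each array centred on its median instead of its 75th percentile, the median of all gene names moved from 0.12 to -0.22, 8 matrix genes were above 0 and 28 below, and 7 were at least 2-fold lower. With bright spike-in controls as the reference it moved to 0.44, 19 matrix genes were above 0 and 16 below, and 0 were at least 2-fold lower. Among all gene names past 2-fold, the share that was higher in pMA went from 73.6% to 34.1% and 91.0% under these scalings. LUM and FMOD were at least 2-fold higher under every setting of scaling, background correction, probe choice and filter, and the matrix median minus that of all gene names stayed between -0.43 and -0.19.

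The comparison of serotonin-treated with untreated pMA asked how the same genes differed after 12 h with serotonin. Nearly every matrix gene was lower: 32 of 36 had a ratio below 0 against 48.8% of all 19095 gene names, and 10 were at least 2-fold lower against 4.73%. None was at least 2-fold higher (2.08% of all gene names were). The median matrix ratio was -0.74 and that of all gene names 0.01. With spike-in scaling 6 genes were at least 2-fold lower and FBLN5 was at least 2-fold higher. At the level of probes, 102 of the 114 with a ratio were below 0 and 46 were at least 2-fold lower. Many of these probes read the same genes again, with 11 for COL14A1 and 8 for COL15A1. The share over all probes was not computed, so the probe counts add no support beyond the gene counts. The 10 genes were COL14A1, COL1A1, COL15A1, TNC, LOXL1, DCN, COL8A1, P4HA1, SPARC and COL5A1, which span fibril components, fibril-associated and basement membrane collagens, matricellular proteins and modifying enzymes.

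All 6 measured fibrillar collagens were lower, with a median of -0.83. COL1A1 read 2.78 in PIP, 2.89 in pMA, 2.11 after TNF-α and 1.48 after serotonin, which was 2.66-fold below pMA. Its partner chain COL1A2 read 8.66, 8.55, 8.26 and 7.63 in the same order, and the difference of -0.91 from pMA did not reach 2-fold. A fainter probe described as type I alpha 2, filed under a transcript name, had -1.35 and so passed 2-fold. Serotonin was the lowest array for both type I chains on these probes. A fainter probe described as type I alpha 1, filed under a transcript name, had only -0.15 and was lowest in PIP. COL5A1 stood at 6.00 in PIP, 5.20 in pMA, 4.91 after TNF-α and 4.18 after serotonin, 2.03-fold below pMA, and its 3 probes lay between -1.22 and -1.02. COL5A2 had -0.74 on its brightest probe and down to -1.36 on the others. A probe described as type V alpha 2, filed under a transcript name, had -1.23. COL27A1 and COL5A3 had the smallest differences of the group, at -0.46 and -0.32.

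COL14A1, a collagen that decorates type I fibrils, had the largest ratio. It read 4.22 in PIP, 3.86 in pMA, 3.97 after TNF-α and 2.20 after serotonin, so that the serotonin array stood apart from the other 3, 3.16-fold below pMA. Its 11 probes were all below 0, from -1.67 to -0.46. COL15A1 read 6.53 in PIP, 5.93 in pMA, 6.57 after TNF-α and 4.53 after serotonin, 2.65-fold below pMA with all 8 probes between -1.61 and -1.28. Those 8 probes lie on 4 stretches without overlap. COL8A1, a short-chain collagen of vessel walls and fibroblasts, read 7.06, 6.73, 5.98 and 5.59 in the same order of arrays, 2.20-fold below pMA, with 4 of 4 probes at least 2-fold lower. COL6A3 (-0.78, all 8 probes below 0), COL7A1 of anchoring fibrils (-0.73, 5 of 5 below 0) and COL17A1 of hemidesmosomes (-0.66) were lower by less than 2-fold. COL4A6, a chain of some basement membranes, had -0.32 after serotonin and -0.38 after TNF-α, and COL10A1 was at least 1.14-fold above its pMA limit after serotonin and at least 1.64-fold after TNF-α.

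The 2 measured laminin chains had small ratios. LAMA4, a chain of the laminins found around fat and muscle cells, had -0.22, and LAMB1 had 0.08 with both probes above 0. The elastic fibre genes split, with a ratio of 0.91 for FBLN5 and -0.61 for FBN1. FBLN5 read 0.45 in PIP, 0.89 in pMA, 1.75 after TNF-α and 1.81 after serotonin. It was the highest matrix ratio in this comparison and rested on 1 probe.

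All 5 proteoglycans were lower, from -0.28 for LUM to -1.16 for DCN. DCN read 3.57 in PIP, 4.25 in pMA, 3.46 after TNF-α and 3.09 after serotonin, so serotonin-treated cells were 2.24-fold below pMA and below PIP as well. LUM and FMOD, which stood out between pMA and PIP, were still above their PIP levels after serotonin. BGN had -0.72, FMOD -0.68 and VCAN -0.76.

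TNC, a matricellular protein of remodelling tissue, read 5.50 in PIP, 4.97 in pMA, 5.47 after TNF-α and 3.62 after serotonin, 2.56-fold below pMA, with its other probe at -0.76. SPARC read 8.16, 7.50, 7.37 and 6.46 in the same order. It was 2.05-fold below pMA on the brightest probe, and its 7 probes lay between -1.60 and -1.01, with a median of -1.53. THBS3 had -0.77 and THBS1 -0.35, with the 6 THBS1 probes between -0.71 and 0.37. FN1, at -0.25, and POSTN, at 0.11 with all 6 probes between 0.02 and 0.11, differed least from pMA in this group.

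All 7 measured enzymes were lower, with a median of -0.80. LOXL1 read 6.58 in PIP, 5.79 in pMA, 4.61 after TNF-α and 4.57 after serotonin, 2.33-fold below pMA. P4HA1 read 4.72, 4.11, 4.35 and 3.04 in the same order, 2.10-fold below pMA. Of its 8 probes 7 were below 0 and the exception gave 0.07. PLOD2 (-0.92), PLOD1 (-0.80) and LOX (-0.79) were lower by less than 2-fold, LOXL3 had -0.34 and P4HA3 -0.07.

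**Figure D2:**
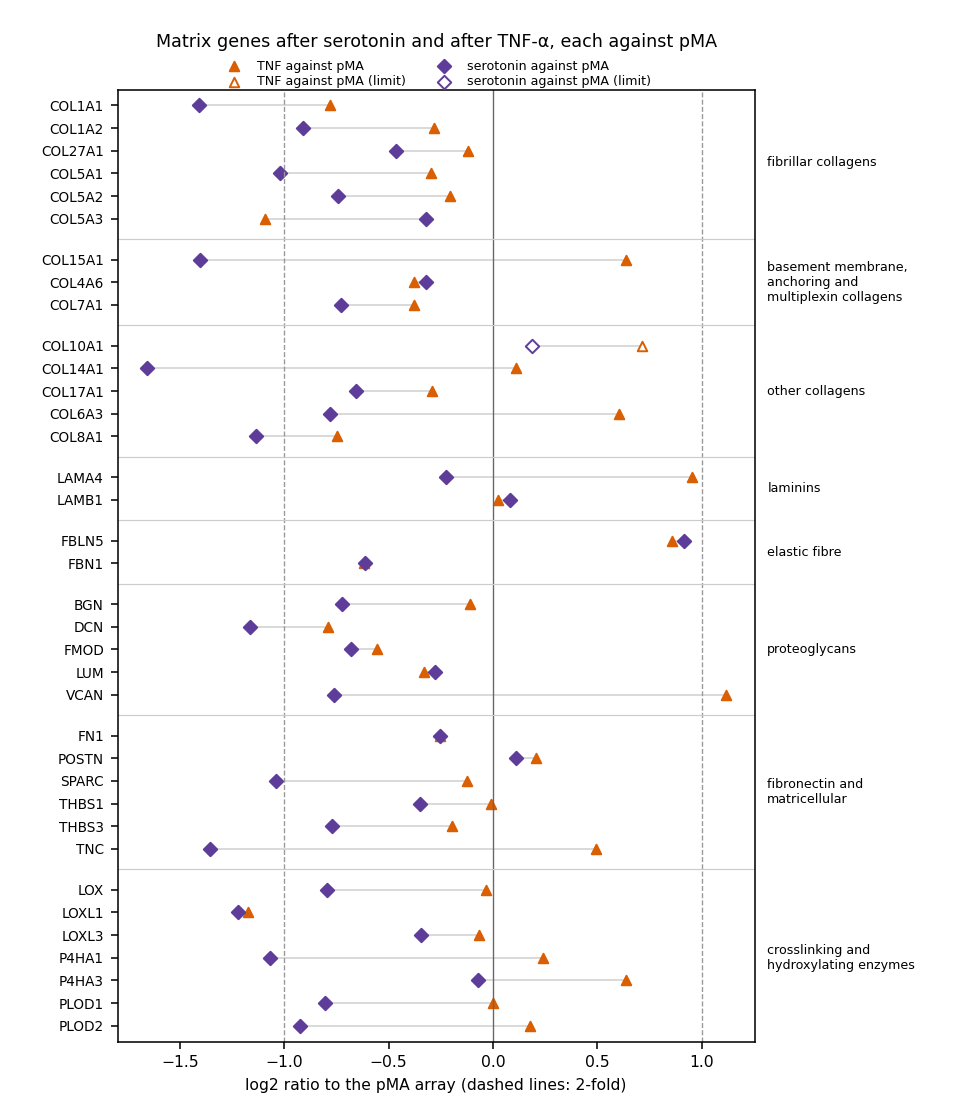
Log2 ratio of 36 matrix genes to the untreated pMA array (x axis, dashed lines at 2-fold) after serotonin (diamonds) and after TNF-α (triangles), by role, with 1 array per condition and open symbols where the pMA level is a background limit. Serotonin values lie below 0 for 32 genes and pass the lower dashed line for 10, while TNF-α values lie on both sides of 0 and pass a dashed line for VCAN, LOXL1 and COL5A3.

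Of 13 procollagen partners 10 were below 0 after serotonin (48.8% of all gene names were), none by 2-fold. The peptidyl-prolyl isomerases FKBP10 (-0.85) and FKBP14 (-0.80) had the lowest ratios, and SERPINH1 had -0.37. Of 10 receptors 7 were below 0. ITGB1, the beta chain shared by most collagen and laminin receptors, was 2.22-fold lower and ITGA1 2.10-fold lower, while ITGA2 was 2.21-fold higher. Of 10 other matrix proteins 9 were below 0. EMILIN1 of elastic fibres, at -1.58, the fibril-associated ASPN, at -1.53, and DPT, at -1.50, were at least 2-fold lower. Of the collagenases, gelatinases and TIMPs, 4 of 6 were above 0, where 9773 of all 19095 gene names were. With 6 genes this count does not set the list apart. The median was 0.27, with MMP14 at 0.49 and MMP2 at 0.33. MMP1, a collagenase, had the largest ratio. It was not well above background in PIP and read -4.10 in pMA, -0.54 after TNF-α and 0.24 after serotonin, 20.2-fold above pMA on its only probe.

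Markers of contractile cells were lower on the same array. The myofibroblast and smooth muscle list, with 4 of 4 genes well above background on every array, summed to 1684 in PIP, 1752 in pMA, 1501 after TNF-α and 777 after serotonin. The skeletal muscle list summed to 643, 658, 610 and 175, with 5 or 6 of 9 genes well above background and MYOD1, MYF5 and MYH2 on none. The actin gene ACTA1 made up 96.1% to 98.3% of that sum and had a serotonin ratio of -1.94, while MYOG had -0.01. The preadipocyte and fibroblast list summed to 438, 519, 444 and 399, with 3 to 5 of 5 genes well above background. VIM alone made up 89.0% to 93.9% of that sum. The adipocyte list summed to 11.5 after TNF-α and 18.0 after serotonin, and its genes did not share a direction: after serotonin LPL had 2.41 and CD36 1.47, but FABP4 had -2.77 and PPARG -0.08. The endothelial list summed to 1.59 in PIP, 1.16 in pMA, 1.16 after TNF-α and 0.48 after serotonin. Of its 5 genes 2 or 3 were well above background, CDH5 on no array, and PECAM1 made up 65.4% to 84.3% of the sum. The epithelial list summed to at most 0.18 on any array. The dividing-cell list went the other way, from 23.3 in pMA to 31.0 after serotonin, with MKI67 at 86.5% and 87.7% of the sum. The part of these shifts in the matrix ratios was not tested.

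**Figure D3:**
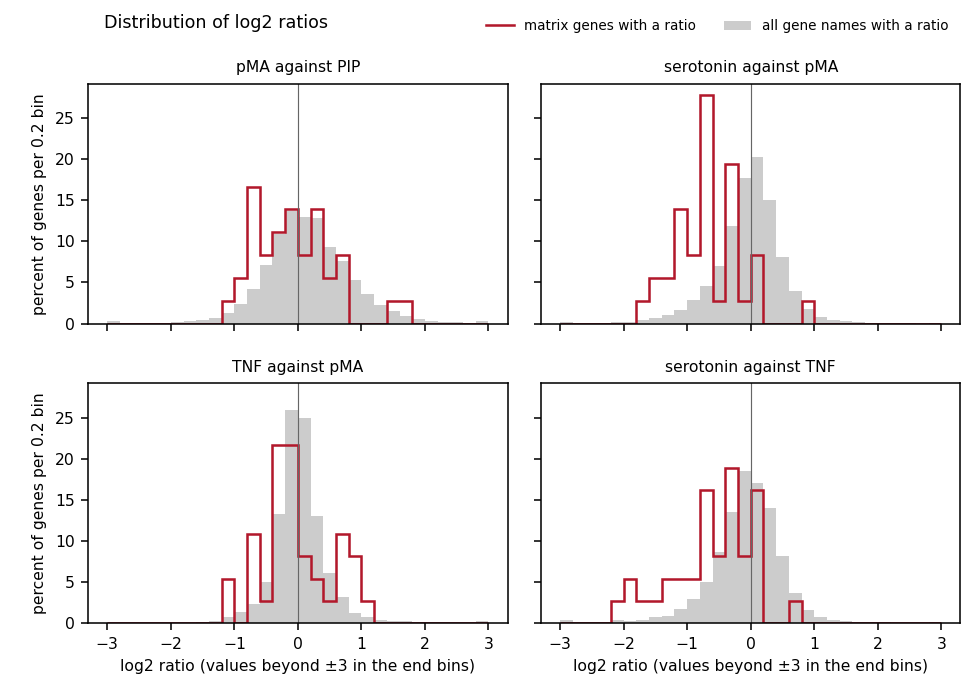
Share of genes in each 0.2-wide bin of the log2 ratio (x axis, values beyond 3 in the end bins) for all gene names with a ratio (grey bars) and for the matrix genes with a ratio (red line), in each of the 4 comparisons, with 1 array per condition. The red line is displaced to the left in the serotonin panels, with medians of -0.74 against pMA and -0.54 against TNF-α, and lies around 0 in the other panels.

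The comparison of TNF-α-treated with untreated pMA shares the pMA array with both comparisons above, so that an error on that array enters all of them. After 12 h with TNF-α the ratios of the matrix genes were spread on both sides of 0. Of 37 with a ratio, 14 were above 0 and 23 below (49.3% of all gene names were below), the median was -0.11 against 0.01 for 19782 gene names, and 3 passed 2-fold, 1 of them upward (2.21% of all gene names passed upward) and 2 downward (1.34%). VCAN was 2.17-fold higher, LOXL1 2.26-fold lower and COL5A3 2.13-fold lower.

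VCAN read 1.31 in PIP, 0.86 in pMA, 1.97 after TNF-α and 0.10 after serotonin on its 1 probe. The TNF-α array was the highest and the serotonin array the lowest. LAMA4 read 3.72 in PIP, 2.96 in pMA, 3.91 after TNF-α and 2.74 after serotonin, and the TNF-α ratio was 0.95. COL15A1 was above pMA by 0.64 on its brightest probe, with 8 of 8 probes above 0, and COL6A3 by 0.60 with 8 of 9, whereas COL7A1 and COL4A6 each had -0.38. A COL6A3 probe at base 7002 of the transcript gave -0.66 where the other 8 were above 0. FBLN5 had 0.86, P4HA3 0.63 and TNC 0.50. LOXL4 was well above background with TNF-α at -3.72 and only there, which puts it at least 1.87-fold above pMA.

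All 6 fibrillar collagens were below 0 after TNF-α, from -0.12 for COL27A1 to -1.09 for COL5A3. COL5A3 read 1.13 in PIP, 0.11 in pMA, -0.99 after TNF-α and -0.21 after serotonin on its only named probe. A faint probe described as type V alpha 3, filed under a transcript name, went the other way. It was at -3.94 after TNF-α, at least 0.69 above pMA on the log2 scale. COL1A1 had -0.78, COL1A2 -0.28, COL5A1 -0.30 and COL5A2 -0.20. COL8A1 (-0.75, 4 of 4 probes below 0), DCN (-0.79, 5 of 5), FBN1 (-0.62, 3 of 3) and FMOD (-0.56) were also lower by less than 2-fold. LOXL1 was at the same level after TNF-α and serotonin, 4.61 and 4.57, and both its probes gave -1.17 and -1.18 with TNF-α. SPARC had -0.12 on its brightest probe, but its 7 probes ran from -0.86 to -0.10 with a median of -0.52. The other widely studied scaffold genes and enzymes differed from pMA as follows: BGN by -0.11, LUM by -0.33, FN1 by -0.25, POSTN by 0.21, THBS1 by -0.01, LOX by -0.04, LAMB1 by 0.02, P4HA1 by 0.24, PLOD1 by 0.00 and PLOD2 by 0.18. The dividing-cell list summed to 23.3 in pMA and 25.3 with TNF-α, and MKI67 made up 86.5% and 76.4% of these sums. Among its other genes CCNB1 was 3.48-fold, CDK1 2.87-fold and BIRC5 2.47-fold higher with TNF-α. The part of these markers in the matrix ratios was not tested.

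Among the pathway lists, none of 13 procollagen partners passed 2-fold. ITGA2 (1.21) and the syndecan SDC4 (1.04) did so upward among 10 receptors (2.21% of all gene names did). SPP1, the gene of osteopontin, was 4.24-fold higher with TNF-α, from 3.43 to 5.51. The calcification inhibitor MGP, at -1.77, and ASPN, at -1.15, were lower. MMP1 was 11.8-fold higher, and the other 5 measured collagenases, gelatinases and TIMPs had ratios between 0.08 and 0.67.

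The 2 treatments were also set against each other directly, without the pMA array. Of 37 matrix genes, 30 were lower with serotonin than with TNF-α (53.7% of 21862 gene names were), 9 were at least 2-fold lower against 5.07%, and none was at least 2-fold higher against 1.83%. The median was -0.54, and -0.04 for all gene names. COL15A1 differed most, 4.11-fold, and all 8 of its probes lay between -2.27 and -1.88. VCAN was 3.67-fold lower, TNC 3.61-fold and COL14A1 3.41-fold. COL6A3 was 2.61-fold lower with 9 of 9 probes below 0, P4HA1 2.48-fold with 8 of 8, LAMA4 2.26-fold and PLOD2 2.15-fold. LOXL4 was at least 2.65-fold lower, since it was not well above background with serotonin, but with normexp background correction its log2 ratio was -0.56. The highest ratio was that of COL5A3, at 0.77. The faint probe described as type V alpha 3 was instead at least 1.04 lower with serotonin on the log2 scale. LOXL1 (-0.05), LUM (0.05), FN1 (0.00), FBLN5 (0.06) and LAMB1 (0.06) were within the SD of repeated spots of 0. FBN1 was at 0.00 on its brightest probe and at 0.23 on the other 2.

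Of the pathway lists, 12 of 13 procollagen partners and 10 of 11 receptors were below 0 in this direct comparison, against 53.7% of all gene names. ITGAV (-1.61) and ITGB1 (-1.26) passed 2-fold among the receptors. SPP1 was 5.82-fold lower with serotonin, DPT (-1.30), LTBP2 (-1.10) and EMILIN1 also passed 2-fold downward, and MGP was 2.75-fold higher.

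**Figure D4:**
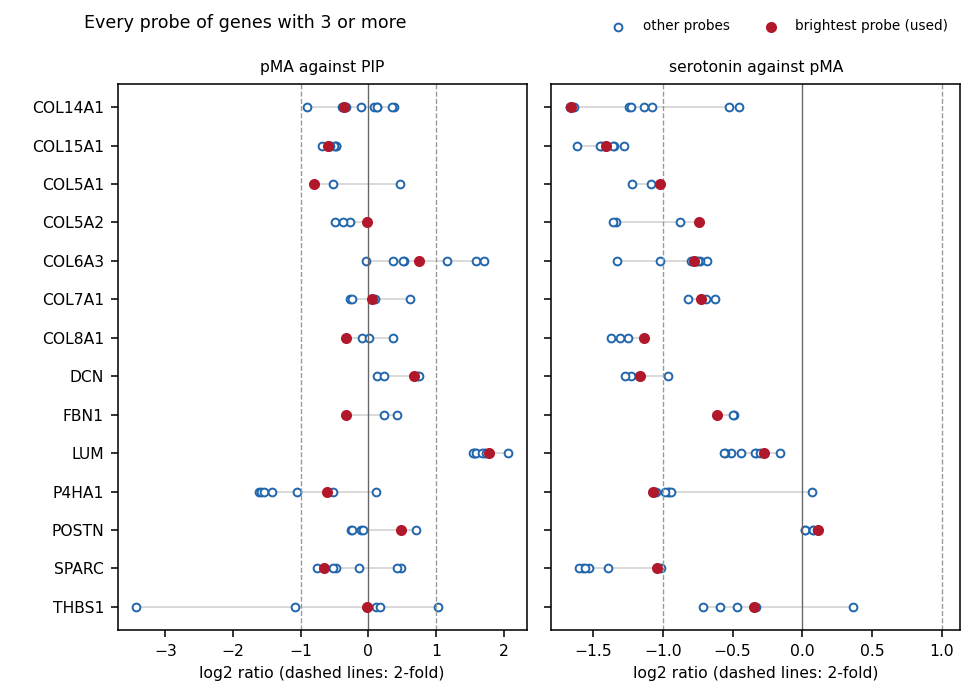
Log2 ratio (x axis, dashed lines at 2-fold) of every probe with a ratio, for the 14 matrix genes with 3 or more such probes, in pMA against PIP and in serotonin against pMA, with 1 array per condition, the brightest probe filled and the others open. The 9 LUM probes sit together between 1.55 and 2.07 on the left and THBS1 spreads from -3.43 to 1.03, while on the right only single probes of P4HA1 and THBS1 and the POSTN probes lie above 0.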

How the data were processed

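The 4 arrays, 1 per condition, were single-colour (Cy3) porcine gene expression arrays scanned and quantified by the submitters with Agilent Feature Extraction 10.7.3.1, as the deposited file headers state. The study's methods describe pooled RNA within a condition and, in part, other array types, and the files were followed. The deposited intensity values used were the processed signals, background-subtracted by the authors' software. The deposited value table equals those signals divided by 1 constant per array and served as an alternative. Control and outlier spots were left out, spots of a probe averaged as log2, and each array's 75th percentile subtracted (Python 3.11.15, pandas 2.3.3). A probe not well above background on an array was set to the higher of its own level and the faintest level well above background there, which makes its ratio a limit. Ratios needed at least 1 of the 2 arrays well above background. A limit was kept only where the array well above background stayed above the level set for the dim array. Alternatives were median, quantile and spike-in scaling, normexp with offset 50 (limma 3.58.1), the value table, other probe and filter rules, and thresholds of 1.5-fold and 4-fold.

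The methods' test across replicates could not be run on 1 array per condition. Steps were tested on simulated data. Named genes were all members at least 2-fold different, a fixed set of widely studied matrix genes, and the 3 largest changes past 2-fold in each direction of the pathway lists. The members, lists and tests were chosen with earlier results of these data known. Gene names are those of the array files. Of 126 matrix probes, 64 carried an accession in the RefSeq gene table used (Sscrofa11.1), and 0 had another symbol there. Positions are bases of the array's target transcripts. The genome build is not given in the sources used here, so no chromosome coordinates are given. 1 gene of the rule is counted but not reported here by name.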

Additional observations from a re-analysis of the deposited data

Results flagged for a closer look

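COL11A1, a minor fibrillar collagen that copolymerises with types II and V, was read by 4 probes filed under a misspelt gene name, COLL11A1, and so stood outside the rule. Genes outside the rule were searched for ratios at least 2-fold higher, and COL11A1 was flagged for its ratio of pMA to PIP. That ratio was the reason for the choice and is no separate support. Its brightest probe read 6.08 in PIP, 7.22 in pMA, 6.24 after TNF-α and 5.30 after serotonin. The pMA array was the highest, at a log2 ratio of 1.15 to PIP, and serotonin the lowest, at -1.92 to pMA. TNF-α gave -0.98. All 4 probes had the same sign in each of these comparisons, from 0.53 to 1.19, from -2.09 to -1.92, and from -0.98 to -0.56. With 1 array per condition none of these was tested.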

How the results depend on the processing

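Over 8 settings of scaling, background correction, probe choice and dim-probe filter, the serotonin median against pMA stayed between -0.74 and -0.59, the TNF-α median between -0.19 and -0.05, and the serotonin against TNF-α median between -0.61 and -0.39. The pMA against PIP median was -0.47 with median scaling and 0.19 with spike-in scaling. The count of genes at least 2-fold lower in pMA than in PIP, 1 as reported, was 7 with median scaling, 3 with the median over probes, and 0 with quantile normalization, spike-in scaling, normexp and the value table. Spike-in scaling put 1 gene higher and 6 lower with serotonin, and 2 higher with TNF-α. With normexp 1 was lower after TNF-α. Without a filter on dim probes 4 were higher in pMA than in PIP and 2 higher after TNF-α. At 1.5-fold, 5 were higher and 10 lower in pMA than in PIP, 1 higher and 23 lower after serotonin, 8 higher and 6 lower after TNF-α, and 1 higher and 17 lower with serotonin than with TNF-α. At 4-fold these counts were 0 and 0 for pMA against PIP, 0 lower after serotonin, 0 and 0 after TNF-α, and 1 lower with serotonin than with TNF-α. The cause of these shifts was not tested, beyond the threshold itself where that was changed. Leaving out saturated probes changed nothing by construction, since no spot was saturated, and is not counted. Of 1159 single-gene values recomputed, 1049 moved by less than 1 SD of a ratio, 110 moved by more and 0 of the genes past 2-fold changed sign.

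Of the 10 genes at least 2-fold lower after serotonin, COL14A1, COL1A1, COL15A1, TNC, LOXL1 and DCN were so in all 8 settings, COL8A1, P4HA1 and SPARC in 6 and COL5A1 in 4. COL5A3 was at least 2-fold lower in pMA than in PIP in 4 of 8 and after TNF-α in 7 of 8. Between serotonin and TNF-α, PLOD2 passed in 7 of 8 (-0.98 with median scaling) and LOXL4 in 6 of 7 (-0.56 with normexp). Among all gene names past 2-fold, the share higher moved with scaling from 30.6% to 49.5% after serotonin (spike-in), from 62.2% to 49.3% after TNF-α (quantile), and from 26.5% to 40.4% with serotonin against TNF-α (median). No paired analysis was possible because each condition had 1 array, and for the same reason no array was left out in turn. Faint probes carry limits only, and the number of arrays sets the precision.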

Other observations

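Other probes for matrix chains stood under transcript names instead of gene symbols. A search of the probe descriptions found 26 probes described as collagen or laminin chains. Several read the same chain, and some are described as chains already counted above, such as type I alpha 2 and type V alpha 2. They are therefore not an independent set, and the shares of gene names beside them count 1 probe per gene. After serotonin 17 of 20 probes with a ratio were below 0, where 48.8% of all gene names were, and 2 were at least 2-fold lower (4.73% of all gene names), with a median of -0.53. With TNF-α 11 of 22 were below 0 (49.3% of all gene names), with a median of -0.02, and in pMA against PIP 11 of 21 (41.9%), with a median of -0.06. The 4 probes described as type IV alpha 1, a basement membrane chain, had serotonin ratios of -0.65, -0.69, -0.54 and -0.68. Probes described as type VI alpha 1 had -0.60, -0.59 and -0.86, and the type VI alpha 2 probe had -0.93. Other probes were above 0, a type IV alpha 2 probe at 0.67, while the other probe so described had -0.14, and a laminin B1 probe at 0.42. The 2 laminin alpha-5 probes had -0.52 and -0.45. A type XVIII alpha 1 probe, for the parent chain of endostatin, had 1.56 after TNF-α and 0.16 after serotonin.

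LAMC1, the gamma chain of most laminins, was found under a locus name with 3 probes. The brightest read 6.90 in PIP, 6.65 in pMA, 6.34 after TNF-α and 5.79 after serotonin, a serotonin ratio of -0.86, while the other 2 gave -0.61 and -0.09. These probes were chosen after their values could be seen and were not tested.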
